A study of Mus musculus with 768 samples.

Results

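The 40 genes described here act when a cell copies its DNA and when it divides. They were taken by symbol from the 24490 gene entries of 2 plates of tumor-infiltrating NK cells, and each symbol stood on 1 entry. They comprised 16 replication genes, 22 mitosis genes and 2 genes used in both phases, Hmgb2 and Stmn1. The list was made from gene function, but with earlier results of these data known.

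NK cells were sorted one at a time from MTAP1A tumors, a fibrosarcoma line made in the skin of a Tap1-deficient mouse and inoculated into male C57BL/6 mice of 8 to 12 weeks. The groups were WT mice and PD-1-/- mice, which lack the inhibitory receptor PD-1 in all their cells. Each group was 1 pool of the tumors of 3 mice on 1 plate, so genotype and plate cannot be told apart, a cell cannot be traced to its mouse, and no test between genotypes was possible. SMART-SEQ2, a full-length single-cell method without molecular identifiers, gave RPKM, a read number corrected for gene length and for the mapped reads of each cell. Cells of 1 pool are not replicates. The exact (Clopper-Pearson) 95% intervals given with shares, and the Newcombe intervals given with differences, therefore cover counting error only. The share that a count of 0 is said to allow is 3 divided by the number of cells. It lies below the exact upper limit, which is 4.45% for 0 of 81 cells.

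Wells with 1000 to 3500 detected genes were kept, 360 of the WT plate and the rest of the 726 on the PD-1-/- plate, with a median of 2264.5 and 2262.5 detected genes. A gene was detected in a cell at an RPKM above 0. Whole reads recovered from the RPKM steps had a median of 297390 per kept WT cell (1243 to 715018) and 316401 per kept PD-1-/- cell (1779 to 800036), and 31 and 16 kept cells had under 100000 of them. The sorted population carried NK markers: Klrk1, which encodes the receptor NKG2D, was detected in 96.7% of the WT and 98.4% of the PD-1-/- cells, and Ncr1, which encodes NKp46, in 90.8% and 91.8%. Eomes was the least often detected of the NK markers, in 61.9% and 55.2%. The gate excluded CD3, yet Cd3g was detected in 11.7% and 15.8% of cells, Cd3d in 14.4% and 16.9% and Cd3e in 7.78% and 12%. T cell markers other than the CD3 chains were rarer. The most frequent was Bcl11b, in 4.72% and 6.01%, while Cd4 was detected in 0.833% and 1.09% and Cd8a in 1.94% and 1.91%. Of the fibrosarcoma markers, Col1a1, Col1a2, Col3a1 and Sparc, no gene was detected in more than 2.78% of cells of a genotype.

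A resting cell holds few transcripts of these genes. As it commits to division, E2F factors are freed from the retinoblastoma protein and the genes of DNA synthesis are transcribed: the Mcm helicase, the Pcna clamp and the enzymes that make deoxynucleotides. Later, in the phases before and during mitosis, cyclin B with Cdk1 and the Aurora and Polo kinases follow. So do spindle motors, kinetochore proteins and the ubiquitin ligase that ends mitosis. These later genes are under the control of B-Myb, FoxM1 and the DREAM complex, which binds the CHR element. NK cells divide as they mature and when cytokines such as IL-15 act on them.

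The letters of their promoters differed between replication and mitosis genes. Promoters of 300 bases, from 250 before to 50 after the start of transcription, were taken from RefSeq on GRCm38.p6 and found for 34 of the 40 genes. Either strand was searched for the CHR letters TTTGAA or TTCGAA, for CCAAT, and for the E2F letters TTCCCGC or TTGGCGC or TTCGCGC or TTGCCGC, which may overlap each other. The CHR letters stood in 15 of 19 mitosis promoters (78.9%) and in 2 of 14 replication promoters (14.3%), against 19.4% of all 27025 promoters. The E2F letters stood in 9 of 14 replication promoters (64.3%) and 4 of 19 mitosis promoters (21.1%), against 9.69% of all. CCAAT was found in 78.6% of the replication and 84.2% of the mitosis promoters, against 37.9% of all. Genes of the same processes that are not among the 40 had like shares: CHR in 33 of 42 further mitosis promoters and 7 of 33 further replication promoters, and E2F in 7 and 21 of them. A match of letters is a description of the window and not a binding site.

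Of each kind, promoters of genes on which the results below turn are shown 5′ to 3′ on the strand of the gene, with the motif in capitals. Mcm6 (chr1:128359656-128359955, minus strand) and Mcm5 (chr8:75109259-75109558, plus strand) encode subunits of the replicative helicase and are shown for their E2F letters, some of which overlap.
Mcm6: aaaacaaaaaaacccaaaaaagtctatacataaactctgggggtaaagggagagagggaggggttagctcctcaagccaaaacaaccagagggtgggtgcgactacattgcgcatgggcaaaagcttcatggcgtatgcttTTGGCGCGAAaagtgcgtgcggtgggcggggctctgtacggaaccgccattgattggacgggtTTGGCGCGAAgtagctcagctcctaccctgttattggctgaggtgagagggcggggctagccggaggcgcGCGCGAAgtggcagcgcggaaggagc
Mcm5: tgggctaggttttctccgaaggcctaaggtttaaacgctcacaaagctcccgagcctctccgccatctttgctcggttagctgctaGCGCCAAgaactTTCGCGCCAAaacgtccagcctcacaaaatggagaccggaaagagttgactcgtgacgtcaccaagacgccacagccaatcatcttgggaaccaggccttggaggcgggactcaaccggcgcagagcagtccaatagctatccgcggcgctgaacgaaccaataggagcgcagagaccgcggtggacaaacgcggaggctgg
Plk1 (chr7:122159185-122159484, plus strand), which encodes Polo-like kinase, Ccnb2 (chr9:70421505-70421804, minus strand), a B-type cyclin, and Cdc20 (chr4:118437294-118437593, minus strand), which activates the anaphase-promoting complex, are shown for their CHR letters.
Plk1: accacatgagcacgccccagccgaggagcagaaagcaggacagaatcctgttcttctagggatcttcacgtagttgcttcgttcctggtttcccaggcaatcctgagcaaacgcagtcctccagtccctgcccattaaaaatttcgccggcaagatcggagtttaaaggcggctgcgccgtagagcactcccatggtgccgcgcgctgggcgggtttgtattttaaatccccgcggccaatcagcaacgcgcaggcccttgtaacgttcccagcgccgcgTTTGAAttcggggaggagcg
Ccnb2: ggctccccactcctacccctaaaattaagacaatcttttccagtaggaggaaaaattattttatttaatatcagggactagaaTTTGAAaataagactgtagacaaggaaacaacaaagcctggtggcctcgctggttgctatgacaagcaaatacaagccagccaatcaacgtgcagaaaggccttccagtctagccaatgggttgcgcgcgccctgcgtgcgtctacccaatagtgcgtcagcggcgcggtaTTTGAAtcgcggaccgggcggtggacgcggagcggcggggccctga
Cdc20: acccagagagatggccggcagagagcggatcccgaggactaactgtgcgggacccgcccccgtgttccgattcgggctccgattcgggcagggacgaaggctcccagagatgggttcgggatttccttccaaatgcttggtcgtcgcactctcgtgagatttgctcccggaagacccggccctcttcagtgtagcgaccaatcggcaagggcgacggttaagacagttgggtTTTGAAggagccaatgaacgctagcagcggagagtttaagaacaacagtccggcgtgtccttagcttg
The CHR letters began 31 bases after the start in Plk1, 5 bases after it in Ccnb2 with a further match at -167, and 18 bases before it, at -18, in Cdc20. In Mcm6, overlapping E2F letters began at -109 and -46, and in Mcm5 at -152.

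Most cells held few of the 40 genes, and those they held were mainly replication genes. The median number of replication genes per cell was 2 of 16 in both genotypes, with quartiles of 1 and 4 in WT and 1 and 3 in PD-1-/- cells, and the highest were 16 and 15. The median number of mitosis genes was 0 of 22, with an upper quartile of 1, and the highest were 12 in WT and 20 in PD-1-/- cells. No mitosis gene was detected in 59.4% of the WT and 52.7% of the PD-1-/- cells.

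**Figure D1:**
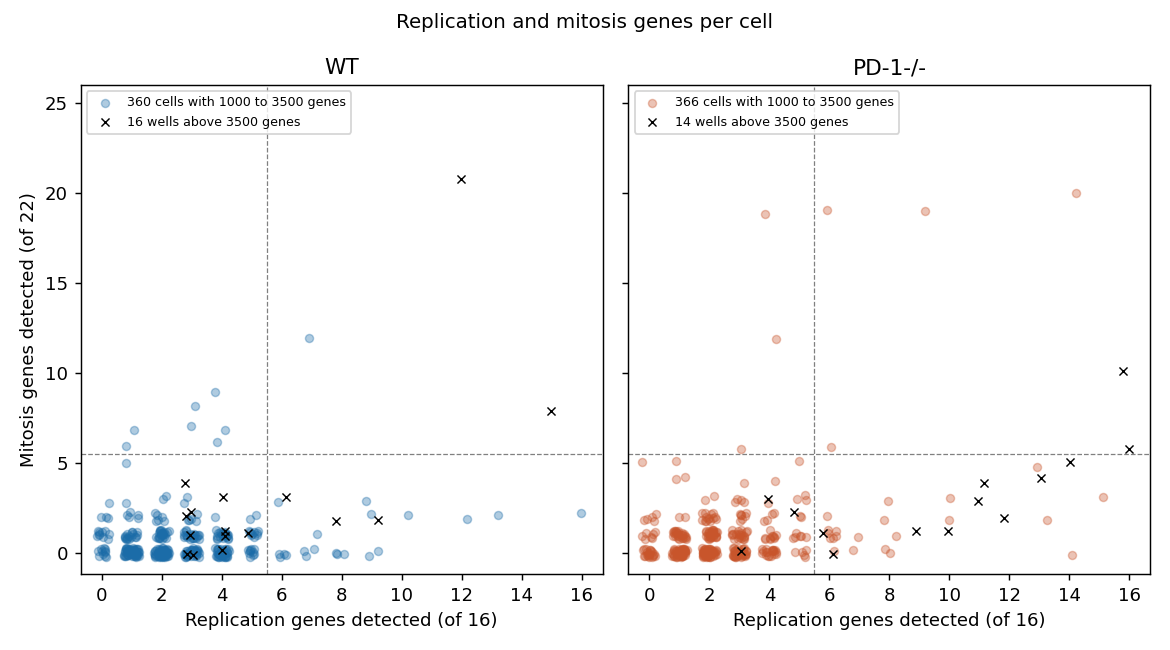
Number of replication genes (x axis, of 16) and mitosis genes (y axis, of 22) detected in each well, WT left and PD-1-/- right, with points moved slightly at random so that they do not cover each other; dashed lines mark the limit of 6 genes. Most kept cells (circles) lie at 0 to 5 replication and 0 to 3 mitosis genes, and a few cells leave that corner along 1 axis or the other, while wells above 3500 detected genes (crosses) reach 16 replication genes.

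The genes that license and copy DNA ranged from widespread to sparse. Pcna, the sliding clamp of the DNA polymerases, was detected in 54.4% of WT cells (95% interval 49.1 to 59.7) and 51.4% of PD-1-/- cells (46.1 to 56.6). Slbp, which binds the stem-loop of histone mRNAs, was detected in 51.1% and 47.5%. The 6 subunits of the Mcm helicase ranged from 14.2% (Mcm5) to 34.2% (Mcm6) in WT and from 14.2% (Mcm3) to 22.7% (Mcm6) in PD-1-/- cells. Where detected, these transcripts were not traces: the median over detecting cells was 101.4 RPKM for Pcna, 212.65 RPKM for Mcm6 and 191.1 RPKM for Mcm5, and Pcna and Mcm5 rested on a median of 41 and 187.5 recovered reads.

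Cells with the whole helicase were rare. None of the 6 Mcm genes was detected in 30.8% of the WT and 36.3% of the PD-1-/- cells, and 1 of them in 35.6% and 38.5%. All 6 were detected in 6 WT cells (1.67%, 0.614 to 3.59) and 3 PD-1-/- cells (0.820%, 0.169 to 2.38). The number went with the number of genes seen: the median of detected genes was 2167 in WT cells with none and 3192 in those with all 6, and 2079 and 3298 in PD-1-/- cells.

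The enzymes of deoxynucleotide synthesis were split. Rrm1, the large subunit of ribonucleotide reductase, was detected in 14.7% of the WT and 15.3% of the PD-1-/- cells, while Rrm2, its small subunit, was detected in 1.94% and 3.83%. Tyms, thymidylate synthase, was detected in 5.83% and 6.28%, and Tk1, thymidine kinase, in 4.72% and 10.1%. Cdc6, which loads the helicase, was found in 1 WT and 4 PD-1-/- cells, and Gins2, Uhrf1 and Chaf1a each in under 5% of cells of either genotype. Thus 5 of the 16 replication genes, but 17 of the 22 mitosis genes, were detected in under 5% of all kept cells.

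Among the mitosis genes, Cenpa, the histone H3 variant of the centromere, was the most widespread, at 17.2% of WT cells (13.5 to 21.5) and 18.9% of PD-1-/- cells (15 to 23.2). Top2a, which untangles chromosomes, was detected in 8.06% and 7.92%, and Mki67, which encodes the proliferation marker Ki-67, in 4.72% and 8.47%. The remaining genes were mostly found in a handful of cells: Ccnb1 in 0.556% and 1.91%, Aurka in 0.278% and 2.46%, and Bub1, a kinase of the spindle checkpoint, in 0.278% and 1.37%.

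**Figure D2:**
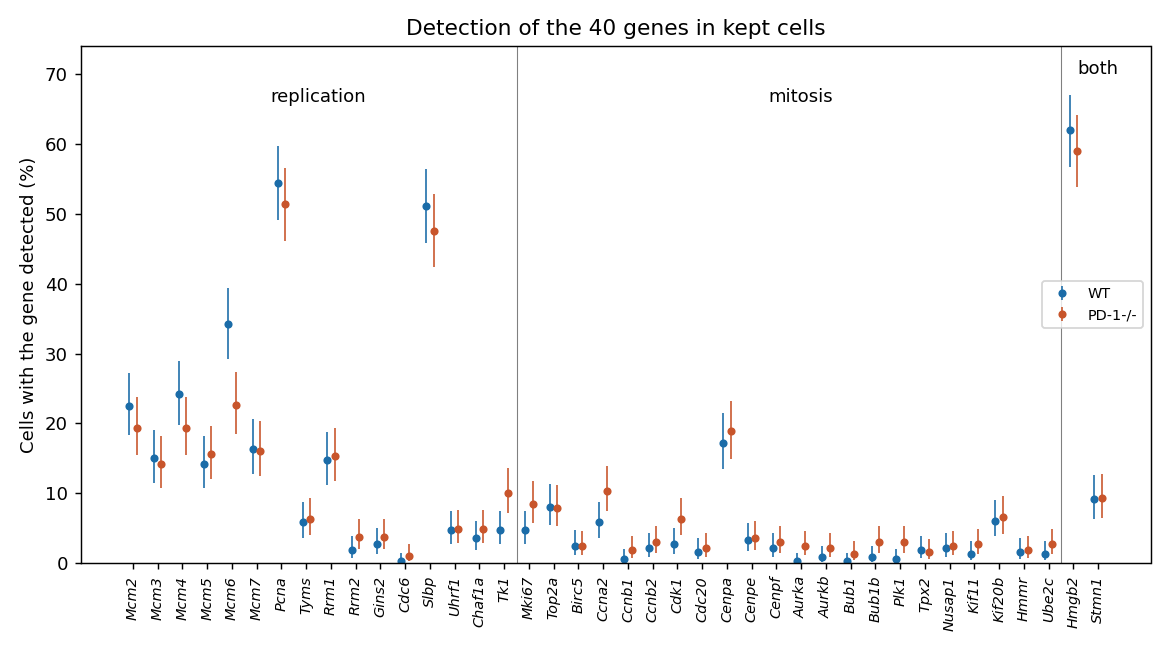
Share of kept cells (y axis, percent) in which each of the 40 genes (x axis) was detected, in WT (blue) and PD-1-/- (orange) cells, with exact 95% intervals for counting error. Pcna, Slbp and Hmgb2 were found in 47.5% to 61.9% of cells, the Mcm genes in 14.2% to 34.2%, and no mitosis gene in more than 18.9%.

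Detection did not mean the same level for each gene. Hmgb2, a chromatin protein, was the most often detected of the 40 genes, in 61.9% of the WT and 59% of the PD-1-/- cells, but its median over detecting cells was 7.58 RPKM, from 6 reads. Ccna2, cyclin A, had a median of 2.57 RPKM over 4 reads, and 45.8% of its detections had 3 reads or fewer. Stmn1, stathmin, which destabilizes microtubules, had a median of 14.6 RPKM. Birc5, the survivin subunit of the chromosomal passenger complex, had a median of 195.8 RPKM and Ccnb2 one of 327.8 RPKM, in 18 and 19 cells.

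A cell was counted as holding the mitosis program when at least 6 of the 22 mitosis genes were detected, and the replication program when at least 6 of the 16 replication genes were. The mitosis program was found in 8 WT cells (2.22%, 0.964 to 4.33) and 7 PD-1-/- cells (1.91%, 0.772 to 3.90). The replication program was found in 21 WT cells (5.83%, 3.65 to 8.78) and 25 PD-1-/- cells (6.83%, 4.47 to 9.92). Near the limit, 1 WT and 4 PD-1-/- cells had 5 mitosis genes and 2 and 2 had 6, and for the replication genes 21 and 17 cells had 5 and 5 and 10 cells had 6. The count of replication program cells therefore rests on where the limit stands more than that of the mitosis program.

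Most cells with the replication program lacked the mitosis program. Of the 46 cells with the replication program, 5 also had the mitosis program: 1 of 21 in WT (4.76%, 0.120 to 23.8) and 4 of 25 in PD-1-/- cells (16%, 4.54 to 36.1), against 2.06% and 0.880% of the cells without the replication program. Of the mitosis program cells, 1 of 8 in WT (12.5%, 0.316 to 52.7) and 4 of 7 in PD-1-/- cells (57.1%, 18.4 to 90.1) also had the replication program. Of the 11 cells with at least 10 replication genes, 10 had 5 mitosis genes or fewer. The clearest was a PD-1-/- cell in well N1, with 14 replication genes, Pcna and all 6 helicase genes among them, and 0 mitosis genes. In WT, the cell of well A18 had all 16 replication genes and 2 mitosis genes, Mki67 and Bub1b. Across all 726 kept cells, Spearman's rho between the counts was 0.14, with 0.06 in WT and 0.23 in PD-1-/- cells, a description over cells of shared plates.

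Among the kept cells, those with most mitosis genes were 4 PD-1-/- cells, in wells K10, L3, L5 and M3, with 19, 19, 20 and 19 of the 22. They differed in the replication genes, of which they had 9, 6, 14 and 4. The cell of well M3, with the fewest replication genes of these, had the highest Cdc20 value of all kept cells, 2002 RPKM, and the highest Ccnb2 value, 1424 RPKM, and it was the single cell of the 15 in which Aurka, the Aurora kinase of spindle poles, was detected. The cell of well L5 held both programs in near full form, with 14 replication and 20 mitosis genes. The highest kept WT cell had 12 mitosis genes (well F24), with Ccnb2, Cdc20, Cenpa and Plk1 among them and neither Top2a nor Kif11. The WT well L17, left out for its 4030 detected genes, held 21 mitosis and 12 replication genes, so the absence of such cells from WT holds for kept wells only.

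**Figure D3:**
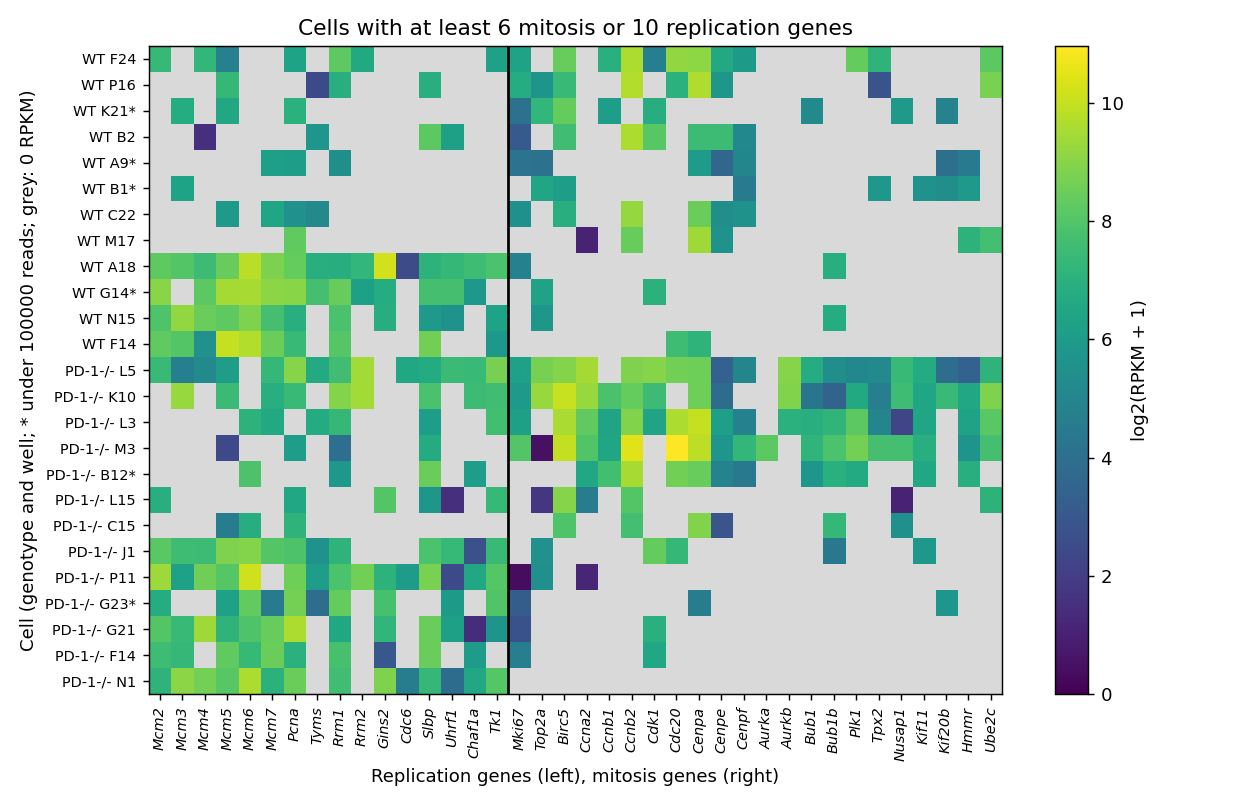
Expression, as log2(RPKM + 1), of the 16 replication genes (left of the black line) and 22 mitosis genes (right) in the kept cells with at least 6 mitosis genes or at least 10 replication genes, 1 row per cell, with genes at 0 RPKM in grey and cells of under 100000 recovered reads starred. Filled blocks lie on the left in 10 cells and on the right in others, and the PD-1-/- cells L5, K10, L3 and M3 have 19 or 20 mitosis genes.

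Not all 15 cells of the mitosis program were alike in depth. The WT cells of wells A9, B1 and K21 and the PD-1-/- cell of well B12 had 10038, 4281, 5919 and 4047 recovered reads, against 202749 to 442060 in the other 11. Of the NK markers, K21 held 4, B12 2, A9 6 and B1 5, against medians of 8 in WT and 7 in PD-1-/- cells without the program. Markers of other cell types were detected as well: K21 and B12 each held 2 of the 4 fibrosarcoma markers. At least 1 of these markers was detected in 9 of the 31 WT and 3 of the 16 PD-1-/- cells of under 100000 reads. In deeper cells the shares were 3.65% and 2.29%. No fibrosarcoma marker was detected in the other 13 cells of the program or in the 46 cells of the replication program. T cell markers were present in 6 of the 8 WT and 3 of the 7 PD-1-/- cells, against 21% and 26.5% of the cells without the program, and myeloid markers in 4 and 3, against 12.2% and 6.41%. A B cell marker was detected in 1 cell of each genotype's program, and so was a neutrophil marker. Without the cells of under 100000 reads, the mitosis program was found in 5 WT cells (1.52%) and 6 PD-1-/- cells (1.71%), and the replication program in 18 (5.47%) and 24 (6.86%). The part of tumor cell RNA in the counts of the shallow cells was not tested.

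Several genes had other levels in the program cells than elsewhere. The program was defined on these genes, so their values are a description. Ccna2 had a median of 252.9 RPKM in the 7 program cells with it and 2.34 RPKM in the 52 other cells with it. Hmgb2, which was not used in the definition, had a median of 55.3 RPKM in 13 program cells and 7.24 RPKM in 426 other cells. Bub1 was found in 6 program cells and in 0 of the 711 other cells, which allows a share of up to 0.422% for these. Birc5 and Ccnb2 were each found in 12 of the 15 program cells and in 6 and 7 of the other cells. By contrast, Cenpa, at 12 of 15, was also found in 16.74% of the other cells, and Kif20b, a kinesin, at 5 of 15, in 5.77% of them. Outside the program, the 711 cells held 443 detections of mitosis genes, of which Cenpa, Ccna2, Top2a, Kif20b and Mki67 made up 67.7%.

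Further genes of the same processes, from lists that the definition did not use, were also more numerous in program cells. Of 54 further mitosis genes, the program cells held a median of 12 in WT (7 to 17) and 31 in PD-1-/- cells (8 to 46), against 3 in cells with neither program in both genotypes. Of 47 further replication genes, cells with at least 10 replication genes and no mitosis program held a median of 27.5 in WT and 27 in PD-1-/- cells, against 4 in cells with neither. Cells of the mitosis program held a median of 7 and 6 of these. The cells with at least 10 replication genes and no mitosis program also held further mitosis genes. Their median was 8.5 in WT (4 to 14) and 9 in PD-1-/- cells (6 to 11), against 3 in cells with neither. Among the further genes, the most often detected were Rfc2 (42.5% in WT and 43.2% in PD-1-/- cells), Dnmt1 (26.7% and 33.6%), Nasp (25.3% and 26.2%) and Rpa2 (25.3% and 24.3%) of replication, and Lbr (61.4% and 55.5%), Tubb4b (56.1% and 51.4%), Smc4 (40.8% and 42.6%) and Racgap1 (15.8% and 19.1%) of mitosis. The 27 regulators of the cycle ranged widely, with a median of 8.95% of cells per gene, against 14.7% for the 16 replication and 2.20% for the 22 mitosis genes. Btg1, an antiproliferative gene, was detected in 97.2% and 96.4%, Ccnd2 in 88.6% and 85.5%, Ccnd3 in 75.8% and 77.3% and Cdk4 in 52.8% and 56.6%, while 11 of the 27 were found in under 5% of cells, among them the transcription factor genes E2f1 (2.22% and 2.73%), Mybl2 (1.67% and 1.09%) and Foxm1 (0.278% and 1.64%).

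Both programs went with the number of genes detected in a cell, to which the counted genes themselves belong. Spearman's rho with the number of detected genes was 0.47 for the replication count and 0.28 for the mitosis count over 726 cells, and with recovered reads 0.12 and -0.06. Of cells with under 2000 detected genes, 2 WT cells (1.96%, 0.238 to 6.90) and 0 PD-1-/- cells, which allows up to 2.44%, had the replication program, and of those with 3000 or more, 8 of 31 (25.8%, 11.9 to 44.6) and 15 of 38 (39.5%, 24 to 56.6). The mitosis program was found in 0 WT and 0 PD-1-/- cells with under 2000 genes, which allows shares of up to 2.94% and 2.44%, and in 3 of 31 and 3 of 38 cells with 3000 or more. With each cell of sufficient depth thinned to 100000 reads, rho between replication count and detected genes was 0.47 over 679 cells.

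**Figure D4:**
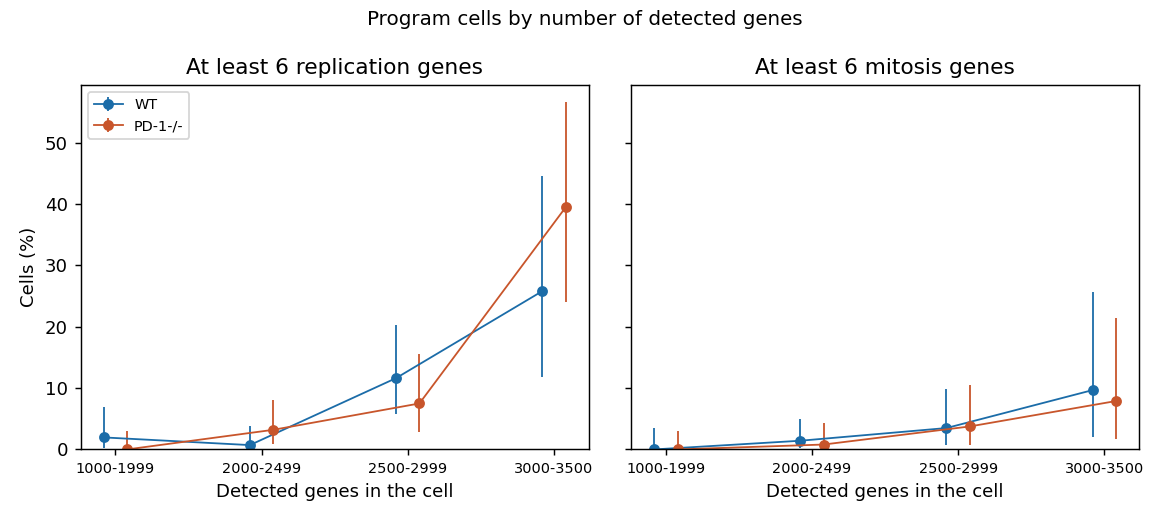
Share of cells (y axis, percent, with exact 95% intervals) that had at least 6 replication genes (left) or at least 6 mitosis genes (right), by the number of genes detected in the cell (x axis), in WT (blue) and PD-1-/- (orange) cells. The replication share is at most 3.20% below 2500 genes and reaches 25.8% and 39.5% at 3000 genes and above.

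Between the genotypes, the share of cells with at least 6 genes of a program differed by less than its counting error. The share with the mitosis program differed by -0.310 points, PD-1-/- minus WT (-2.63 to 1.95), and that with the replication program by 0.997 points (-2.64 to 4.64). With 4 genes needed in place of 6, the replication share was 28.6% in WT and 21.6% in PD-1-/- cells, so that the difference turned to -7.03 points (-13.3 to -0.717). Of the single genes, 7 of the 40 had a higher share of cells in the PD-1-/- plate with a 95% interval of the difference without 0, where 2.89% of 14761 genes did. That background, also used for lower shares below, included genes found in as few as 3 wells. The members were found in at least 5 kept cells, so the gene sets are not alike. The 7 were Tk1, Mki67, Ccna2, Cdk1, Aurka, Bub1b and Plk1. Above 10 RPKM, Mki67 was found in 13 WT and 15 PD-1-/- cells, and its median over detecting cells was 40.9 and 9.98 RPKM. The other genes kept a difference above 10 RPKM: Tk1 in 16 and 29 cells, Cdk1 in 8 and 16, and Ccna2 in 1 and 8. Aurka was above it in 1 and 8 cells, Bub1b in 3 and 9, and Plk1 in 2 and 10. Tk1 was detected in 4.72% of the WT and 10.1% of the PD-1-/- cells (difference 5.39 points, 1.57 to 9.31), and Ccna2 in 5.83% and 10.4% (4.55 points, 0.556 to 8.61). The difference in Tk1 had the same direction in rows A to H of the plates (5.06% and 9.24%) and in rows I to P (4.40% and 11%), but that in Plk1 did not (1.12% and 0.543% in rows A to H, 0 WT cells, which allows up to 1.65%, and 5.49% in rows I to P). Cdk1 differed little in rows A to H (3.37% and 3.80%) and more in rows I to P (2.20% and 8.79%). Mki67, Ccna2, Aurka and Bub1b had the same direction in both.

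Mcm6 went the other way and was the only member with a lower share in PD-1-/- cells by that measure, where 3.17% of all genes were lower. Transcripts were found in 34.2% of WT cells (29.3 to 39.3) and 22.7% of PD-1-/- cells (18.5 to 27.3), a difference of -11.5 points (-17.9 to -4.93). The direction was the same in rows A to H (31.5% and 20.1%) and rows I to P (36.8% and 25.3%). The mean was 84 RPKM in WT and 48.4 RPKM in PD-1-/- cells. No other helicase gene had an interval without 0: Mcm4 was detected in 24.2% and 19.4%, Mcm2 in 22.5% and 19.4%, and Mcm5 in 14.2% and 15.6%.

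Mean levels were compared as log2 ratios of the mean RPKM over kept cells, PD-1-/- over WT, after 1 RPKM was added to each mean, and only where either mean reached 1 RPKM. Of the 38 members so compared, 12 were higher by a log2 ratio of at least 1, where 4.71% of 12030 genes were, and 0 were lower by as much, where 7.34% were. The 12 were Rrm2, Tk1, Birc5, Ccna2, Ccnb1, Cdk1, Cdc20, Aurka, Aurkb, Bub1, Plk1 and Kif11. Ccna2 had the largest ratio, 2.24, with means of 0.500 and 6.08 RPKM, followed by Cdc20 at 1.45 (3.42 and 11.1 RPKM). The median over 21 mitosis genes was 0.89 and over 15 replication genes 0.02, against -0.03 over all genes compared. Sparse genes scatter more: of the 3526 compared genes found in under 5% of cells, 13.5% were higher and 22.9% lower by a log2 ratio of at least 1, and of 20 such members 10 were higher and 0 lower.

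These means rested on very few cells. The 3 highest cells supplied a median of 66.2% of the summed RPKM of a mitosis gene in PD-1-/- cells and 76.8% in WT cells, against 19.4% and 20% for a replication gene. The 7 cells of the mitosis program supplied 90.1% of the Ccna2 sum, 88.5% of the Birc5 sum and 87.8% of the Cdc20 sum of the PD-1-/- plate. The 4 cells with 19 or 20 mitosis genes all stood in rows I to P. In rows A to H alone, the median log2 ratio over members was -0.379, against -0.0856 over all genes compared. In rows I to P it was 0.995, against 0.0358. The direction of the mean difference was therefore not the same in both parts of the plates. By a log2 ratio of at least 1, 1 member was higher and 9 were lower in rows A to H, and 19 were higher in rows I to P. With 10 RPKM added in place of 1, 0 members were higher by as much, and with no upper limit on detected genes 6 were. The shares of all genes past that limit are not given for these rows and settings, so the counts have no background beside them.

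Cxcr6, which encodes the receptor for CXCL16 and marks lymphocytes that stay in tissues, was detected in 28 WT cells (7.78%) and 77 PD-1-/- cells (21%). The mitosis program was found in 2 Cxcr6+ and 6 Cxcr6- WT cells (7.14% and 1.81%), a difference of 5.34 points (-0.229 to 20.9). In PD-1-/- cells it was found in 3 and 4 such cells (3.90% and 1.38%), a difference of 2.51 points (-0.814 to 9.51). The 3 Cxcr6+ cells were K10, L5 and M3, of the 4 cells with 19 or 20 mitosis genes, with Cxcr6 at 1042, 215.8 and 1264 RPKM. The replication program was found in 2 and 19 such cells in WT (7.14% and 5.72%) and in 6 and 19 in PD-1-/- cells (7.79% and 6.57%). Both intervals of the difference held 0. In WT cells without Cd3d, Cd3e and Cd3g the mitosis difference turned to -1.05 points (-3.05 to 26.7). With no upper limit on detected genes it was instead 7.05 points in WT (0.736 to 21.6) and 4.76 points in PD-1-/- cells (0.725 to 12.2), and with detection above 10 RPKM 3.95 points in PD-1-/- cells (0.461 to 12.1), with intervals without 0.

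By single genes, the mean levels of mitosis genes with Cxcr6 in PD-1-/- cells rested on 3 cells. In PD-1-/- cells, 15 of 22 mitosis genes had a mean RPKM higher in Cxcr6+ cells by a log2 ratio of at least 1 and 0 had one lower, and of all 40 members 18 were higher and 1, Gins2, lower, where 11.6% and 14.6% of all genes compared were. The cells K10, L5 and M3 supplied a median of 91.1% of the sum of a mitosis gene over the 77 Cxcr6+ cells. In rows A to H, with 33 Cxcr6+ cells, 3 of 17 mitosis genes were higher with Cxcr6 and 8 lower (median log2 ratio -0.905). In rows I to P, with 44 such cells, 18 of 22 were higher and 0 lower (median 1.90). Without the 4 cells of 19 or 20 mitosis genes, 1 of 18 was higher and 5 lower (median -0.339). The shares of all genes past the limit are not given for these smaller groups, so the counts have no background beside them. In WT cells, 9 of 36 members were higher and 5 lower, where 19.4% and 23.1% of all genes were. Mki67 was detected in 13 Cxcr6+ and 18 Cxcr6- PD-1-/- cells (16.9% and 6.23%) and in 4 and 13 WT cells (14.3% and 3.92%). Tk1 was detected in 22.1% and 6.92% of PD-1-/- and in 14.3% and 3.92% of WT cells. Mcm6 had the opposite order, 19.5% and 23.5% in PD-1-/- and 28.6% and 34.6% in WT cells, and Pcna was at 50.6% and 51.6% and at 57.1% and 54.2%. The median number of detected genes was 2308 in Cxcr6+ and 2252 in Cxcr6- PD-1-/- cells, and 2356.5 and 2262.5 in WT cells.

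Cd3g, a chain of the T cell receptor complex, was detected in 42 WT and 58 PD-1-/- cells, of which 16 and 29 also had Cxcr6. The mitosis program was found in 4 Cd3g+ and 4 Cd3g- WT cells (9.52% and 1.26%), a difference of 8.27 points with an interval of 2.19 to 20.8. Of these 4 Cd3g+ cells, A9 and B1 had 10038 and 4281 reads, and without cells of under 100000 reads they were 2 and 3 cells (5.56% and 1.02%), a difference of 4.53 points (0.0682 to 17.1). With deeper cells thinned to 100000 reads it was 1.84 points (-1.21 to 13.5). In PD-1-/- cells the program was found in 2 and 5 such cells (3.45% and 1.62%), a difference of 1.82 points (-1.45 to 10.2). The replication program was found in 7.14% and 5.66% of the WT cells and in 8.62% and 6.49% of the PD-1-/- cells, with intervals of the difference that held 0. Tk1 was again more often found, in 22.4% of Cd3g+ and 7.79% of Cd3g- PD-1-/- cells, and in 7.14% and 4.40% of WT cells. By mean RPKM, 11 of 36 members were higher and 4 lower in Cd3g+ WT cells by a log2 ratio of at least 1, where 21.9% and 15.7% of all genes were, and 7 of 39 were higher and 4 lower in PD-1-/- cells, where 10.5% and 17.7% were. By share of cells, 11 of 22 mitosis and 8 of 16 replication genes were higher with Cd3g in both genotypes, and 4 and 1 lower. Of the same 10214 genes, 32.2% were higher and 21.1% lower in both.

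S1pr5, the sphingosine 1-phosphate receptor by which mature NK cells leave tissues, was detected in 81 WT and 93 PD-1-/- cells. None of these cells had the mitosis program: 0 of 81 WT cells, which allows a share of up to 3.70%, and 0 of 93 PD-1-/- cells, which allows up to 3.23%, against 8 (2.87%) and 7 (2.56%) of the cells without S1pr5. The differences, -2.87 points (-5.56 to 1.87) and -2.56 points (-5.20 to 1.62), were not larger than counting error. The highest number of mitosis genes in an S1pr5+ cell was 2 in WT and 4 in PD-1-/- cells. The replication program was found in 2 S1pr5+ and 19 S1pr5- WT cells (2.47% and 6.81%) and in 3 and 22 PD-1-/- cells (3.23% and 8.06%), again with intervals that held 0. With no upper limit on detected genes, the difference in PD-1-/- cells was -8.27 points (-13.0 to -1.62), an interval without 0. It was not foreign to S1pr5+ cells, since the PD-1-/- cells of wells F14 and N1, with 10 and 14 replication genes, had S1pr5 at 234.6 and 364.6 RPKM.

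Single mitosis genes pointed the same way. The program was defined on them and its 15 cells all lacked S1pr5, so the counts and means below partly restate that result. The counts were not repeated without those cells. In both genotypes, 18 of 22 mitosis and 9 of 16 replication genes were found in a lower share of S1pr5+ than S1pr5- cells. Of the 10214 genes found in at least 2% of kept cells, 40.3% were lower in both. That background left out rarer genes, while the members include some, such as Bub1 at 0.826% and Ccnb1 at 1.24% of kept cells. The gene sets are therefore not alike. Birc5 was detected in 0 S1pr5+ and 9 S1pr5- WT cells and in 0 and 9 PD-1-/- cells, and Mki67 in 2.47% and 5.38% of the WT and 5.38% and 9.52% of the PD-1-/- cells. Pcna had the opposite order in both genotypes, at 65.4% with and 51.3% without S1pr5 in WT and 59.1% and 48.7% in PD-1-/- cells, and so had Mcm3, at 18.5% and 14% in WT and 15.1% and 13.9% in PD-1-/- cells. Slbp was higher with S1pr5 in WT (60.5% and 48.4%) and lower in PD-1-/- cells (40.9% and 49.8%). By mean RPKM, 12 of 33 members in WT and 19 of 39 in PD-1-/- cells were lower with S1pr5 by a log2 ratio of at least 1, where 19.4% and 17% of all genes were, and 0 and 0 were higher, where 6.39% and 7.46% were. Cells with S1pr5 had fewer detected genes in the PD-1-/- plate, a median of 2074 against 2330, and in the WT plate 2247 against 2278.

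**Figure D5:**
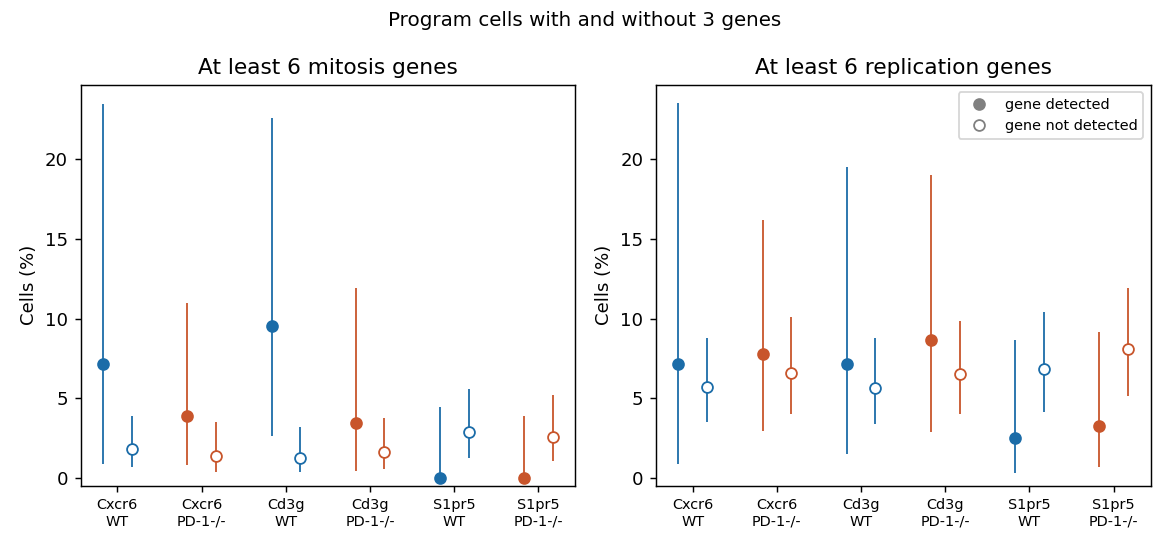
Share of cells (y axis, percent) with at least 6 mitosis genes (left) and at least 6 replication genes (right) among cells in which Cxcr6, Cd3g or S1pr5 was detected (filled) or not detected (open), in WT (blue) and PD-1-/- (orange) cells, with exact 95% intervals. The mitosis share is 0% in S1pr5+ cells of both genotypes and 9.52% in Cd3g+ WT cells, and most intervals overlap.

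The genes most like each count were sought among 10166 genes on 1 entry, found in at least 2% of kept cells and not among the 40, by Spearman's rho over 726 cells. With the mitosis count the highest were Spp1 (0.25), Cks1b (0.23), Ttn (0.22), Exosc9 (0.22), Aspm (0.21), Xist (0.21), Prdx4 (0.20), Tacc3 (0.20), Cdca7 (0.19) and Cdca3 (0.19). Of these, Cks1b, Aspm, Tacc3 and Cdca3 were on the list of further mitosis genes and Cdca7 on that of further replication genes. Several of these were more often found in the 47 cells of under 100000 reads: Xist in 27.7% of them and 0.736% of deeper cells, Ttn in 34% and 4.12%, and Spp1 in 46.8% and 20.2%. Over the 679 deeper cells rho was 0.03 for Xist, 0.11 for Ttn and 0.18 for Spp1. Of the 4 mitosis program cells of under 100000 reads, 3 held Xist, 3 Ttn and 4 Spp1. The mice were male, and the source of the Xist reads was not tested. With the replication count the highest were Rps2 (0.25), Tuba1b (0.24), Hells (0.23), Rpl9 (0.23), Hprt (0.23), Gnb2l1 (0.23), Rps26 (0.22), Nubp1 (0.22), Tyms-ps (0.22) and Coro1a (0.22), which include 3 ribosomal protein genes. Tyms-ps is a processed copy of Tyms, and reads of these genes may be shared. All these correlations were weak and are given as a description.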

How the data were processed

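NK cells from 2 plates of 384 wells, 1 per genotype, were analysed, and every well of the deposited tables was read (the labels state 382 sorted cells). The authors made SMART-SEQ2 libraries and deposited RPKM per gene and well, and the submitters' processing notes list TopHat, Cufflinks and the builds mm9 and mm10 without saying which was used for what. Genes are given by the deposited symbols and promoters by RefSeq on GRCm38.p6. The 2 plates were compared without further scaling.

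The 40 genes, the gene lists and the limits were chosen with earlier results of these data known. Genes found in at least 3 wells (14761) were counted, and wells with 1000 to 3500 of them kept. A program was at least 6 genes of a list above 0 RPKM. Log2 ratios are of mean RPKM with a pseudocount of 1, for genes with a mean of at least 1 in one of the groups compared. Each genotype is 1 pool, so no test was run. The named genes are the 40, Cxcr6, Cd3g, S1pr5 and markers, the 10 genes most like each count, and the 4 most often detected of each further list. Cells named by well were chosen after their values were seen.

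Low RPKM values lie on steps of 1 read, which gave read numbers for 9521 genes, 98.4% of 661584 values under 60 reads being whole within a relative tolerance of 0.00001, and were used for depth and thinning only. For 8 members without found steps, reads were estimated from exon length. Read recovery was tested on simulated reads and ratios on resampled wells with planted changes, and the intervals were checked against fixed values. Depth sets what can be detected: cells with few reads can hold many genes at low precision. No doublet caller was run on sorted wells. For the shares 12 alternatives were tried and for the ratios 8, and leaving out cells of under 100000 recovered reads and, for the Cxcr6 ratios, splitting the plate rows and leaving out cells with at least 19 mitosis genes were added after seeing the data. Python 3.11.15, numpy 2.4.6, pandas 2.3.3, scipy 1.17.1 and matplotlib 3.10.9 were used.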

Additional observations from a re-analysis of the deposited data

Results flagged for a closer look

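Wells above 3500 detected genes were left out of all comparisons, and the replication program was more frequent in them than in the kept cells. It was found in 5 of 16 such WT wells (31.2%, exact 95% interval 11 to 58.7) and in 11 of 14 such PD-1-/- wells (78.6%, 49.2 to 95.3), against 5.83% and 6.83% of kept cells. The number of replication genes had a median of 4 (3 to 15) in the WT wells and 10.5 (3 to 16) in the PD-1-/- wells. The mitosis program was found in 2 of 16 and 2 of 14 of them. The WT well L17, with 4030 detected genes and 280292 recovered reads, held 21 of the 22 mitosis genes and 12 replication genes, more mitosis genes than any kept cell, and no fibrosarcoma marker. The WT well B17, with 15 replication and 8 mitosis genes, had 21481 reads and 2 fibrosarcoma markers. The upper limit removed 2 WT and 8 PD-1-/- wells with at least 10 replication genes, next to 4 and 7 among the kept cells.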

How the results depend on the processing

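With 4 genes needed for a program in place of 6, the replication program was found in 28.6% of the WT and 21.6% of the PD-1-/- cells and the mitosis program in 4.10% of the PD-1-/- cells, and the PD-1-/- minus WT difference in the replication share turned to -7.03 points (-13.3 to -0.717). With 10 genes needed, the mitosis share of WT cells was 0.278%, which is 1 cell. The replication shares were 1.11% in WT and 1.91% in PD-1-/- cells, and 0% of the 4 WT replication program cells had the mitosis program. The WT difference in mitosis share, which then rested on that 1 cell, was -0.301 points for Cxcr6 and, reversed, -0.314 points for Cd3g. In rows A to H, 0% of the 9 PD-1-/- replication program cells had the mitosis program. The Cxcr6 difference of PD-1-/- cells was -1.32 points in these rows. By a log2 ratio of at least 1, 1 member was higher and 9 lower in them, against 12 and 0 in all rows. In rows A to H the log2 ratios of Rrm2 (-0.76), Birc5 (-0.91), Cdc20 (-0.62), Aurkb (-0.40) and Plk1 (-1.28) had the other sign. In rows I to P, 19 members were higher and 0% of the 8 WT replication program cells had the mitosis program. In cells without Cd3d, Cd3e and Cd3g, the WT Cxcr6 difference was -1.05 points, and the Cd3g difference has no value there. In cells with 2000 to 2500 detected genes, the replication share was 0.709% in WT (1 cell) and 3.20% in PD-1-/- cells (4 cells). Of these few cells, 0% had the mitosis program in either genotype. The PD-1-/- Cxcr6 difference was -0.990 points there. With cells thinned to 100000 reads, the WT differences were -1.30 points for Cxcr6 and 1.84 points for Cd3g. With 10 RPKM added to the means 0 members were higher, and with no upper limit on detected genes 6 were. The shares of all genes past a log2 ratio of 1 are not given for these alternatives. The cause of these changes was not tested.

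The WT difference in replication share with Cxcr6 turned from 1.42 to -4.62 points in rows I to P, -6.17 without rows A and B and -5.61 without Cd3d, Cd3e and Cd3g. Among the single genes, 53 values of a log2 ratio under an alternative crossed the limit of 1 in either direction without such a change of sign. The other program shares and their differences moved by no more than their counting error, although some intervals then left 0, as given beside those results, and the other member counts by less than 1.5 times. Among the alternatives to the ratios, the median over all genes compared lay between -0.09 (rows A to H) and 0.04 (rows I to P). No paired analysis was possible because each genotype is 1 pool on 1 plate and no result comes from a test. Depth limits what can be seen: thinning removes genes of a few reads, and 31 WT and 16 PD-1-/- cells of under 100000 recovered reads do not enter the thinned values.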
